A study of Myotis pilosus with 4 samples.

Results

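The miRNAs miR-22-3p, miR-130-3p and miR-148-3p are 3 of the roughly 200 mature miRNAs listed for the bat Myotis ricketti (Myotis pilosus in the sample labels), of which 77 are specific to this bat and roughly 120 are conserved in other animals (200 and 120 are rounded to the nearest 10). All 3 belong to the conserved ones. They were chosen by name, as listed members of miRNA families with a known part in the formation of fat cells. Which member of its family each listed sequence is was not determined here. Their mature sequences were looked up among the small RNA reads of 4 libraries, first as the identical read sequence (tag) and then as all tags that begin with the first 18 nt of the listed sequence.

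The 4 libraries were the whole brain of hibernating bats (HB), the whole brain of active bats (AB), the white adipose tissue (WAT) of hibernating bats (HA) and the WAT of active bats (AA), and the labels call the active state aroused. Each library was 1 pool of RNA from several wild-caught bats without any genetic or drug treatment, so there was 1 library per condition and no replicate. The brain and WAT pools of a state were made from the same bats. Capture of the active animals took place in October and that of the hibernating ones in the following March, so state and season cannot be told apart. Without replicates no test was made. Each ratio below compares 2 libraries, with a 95% interval (exact Clopper-Pearson). A difference of 2 such log2 ratios has a 95% interval by a normal approximation from its 4 counts. These intervals cover counting error only, since copies of 1 molecule made by PCR are not independent and the differences between bats are not measured.

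A miRNA is a short RNA that guides a silencing complex to messenger RNAs, mainly by pairing through its seed, bases 2 to 8 from the 5′ end. White adipose tissue stores the fat on which a hibernating animal lives, and its fat cells form from precursor cells under the control of transcription factors such as PPARγ. miR-130 is known to repress PPARγ and to hold back fat cell formation, while miR-22 and members of the miR-148/152 family, which share a seed, have been studied in the differentiation of fat cells and in lipid metabolism.

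The listed sequences of the 3 miRNAs are shown first because every count below starts from them. Each is 22 nt long, and the seed is in capitals.
miR-22-3p: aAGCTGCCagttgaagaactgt
miR-130-3p: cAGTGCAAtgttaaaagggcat
miR-148-3p: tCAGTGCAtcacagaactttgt
None of the 3 seeds was shared with another listed miRNA. The seeds of miR-130-3p and miR-148-3p hold the same bases AGTGCA, starting 1 base later in miR-148-3p.

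The depth was between 10007650 clean reads in AB and 12159756 in HB. The markers of brain, 5 listed miRNAs, summed to 34532 and 45412 RPM (reads per 1000000 clean reads) in HB and AB but to 32.7 and 37.9 in the 2 WAT libraries, where miR-153-3p had 0 reads, so the brain and WAT libraries stood apart as labelled. The 3 markers of striated muscle summed to 17409 and 18253 RPM in HA and AA and to 1948 and 1605 in HB and AB. The miRNAs miR-22-3p, miR-130-3p and miR-148-3p were detected in all 4 libraries. In pooled tissue RNA, fewer cells of a type and less RNA per cell cannot be told apart. RPM is taken over all clean reads. The study reports a smaller share of miRNA and a larger share of ribosomal RNA among genome-matched reads in HA than in AA. Levels in RPM are not corrected for this difference in make-up.

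miR-22-3p was the most abundant of the 3 in every library. Its listed sequence had 1962, 1419, 9822 and 10259 reads in HB, AB, HA and AA, which are 161, 142, 851 and 897 RPM. Both WAT libraries were thus above both brain libraries, and the 2 states lay close together within each tissue. With all tags that begin with its first 18 nt, it had 18894, 10013, 48732 and 43316 reads in HB, AB, HA and AA. By these reads miR-22-3p ranked 19, 27, 11 and 12 among the listed miRNAs in HB, AB, HA and AA.

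miR-130-3p, the repressor of PPARγ, had 276, 221, 1224 and 3108 reads of the listed sequence in HB, AB, HA and AA, or 22.7, 22.1, 106 and 272 RPM. The AA library was the highest by far, HA came next, and both brain libraries were low and overlapped in their counting intervals. The tags with its first 18 nt gave the same order of tissues, with 2277, 1742, 7809 and 23466 reads in HB, AB, HA and AA. Its rank by these reads was 47, 51, 25 and 19 in HB, AB, HA and AA.

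The listed miR-148-3p differed little between the libraries, unlike the most abundant sequences outside the list that share its seed, which are described below. Its listed sequence had 950, 1159, 944 and 1129 reads in HB, AB, HA and AA, or 78.1, 116, 81.8 and 98.7 RPM, so both active libraries were above both hibernating libraries on this scale. The tags with its first 18 nt ordered the libraries by tissue instead, with 5399, 4781, 7674 and 7266 reads in HB, AB, HA and AA. These were 444, 478, 665 and 635 RPM.

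**Figure D1:**
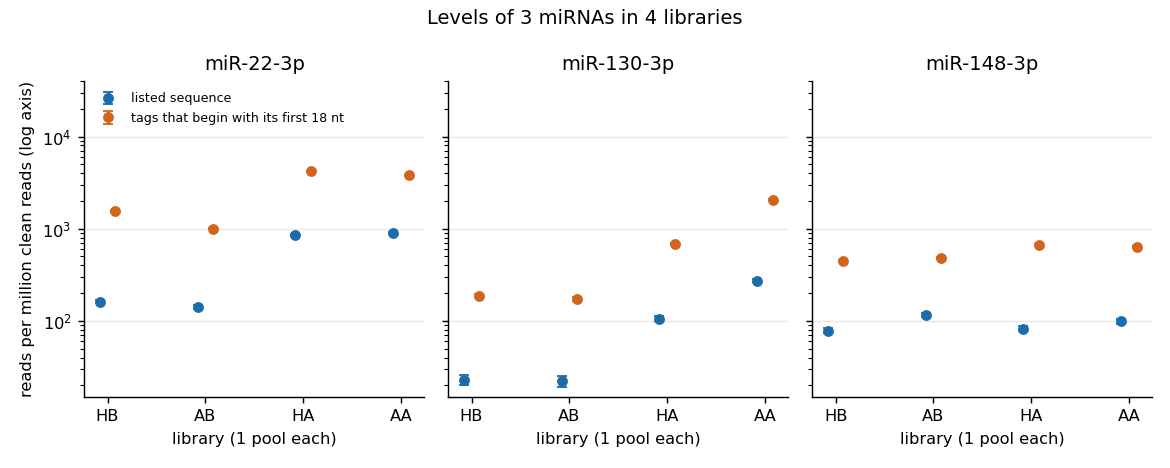
RPM (log axis) of each miRNA in the 4 libraries, HB and AB from brain, HA and AA from WAT; blue points are the listed sequence, orange points all tags that begin with its first 18 nt, and bars are 95% counting intervals. miR-22-3p and miR-130-3p lie higher in WAT than in brain under both count rules, miR-130-3p is higher in AA than in HA, and miR-148-3p lies between 78.1 and 116 for the listed sequence in all 4 libraries.

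The comparison of the hibernating and the active state in WAT asked how these regulators differ in the tissue that stores fat. Ratios were scaled with the TMM factors of edgeR over all listed miRNAs. miR-130-3p was 2.01-fold lower in HA than in AA, a log2 ratio of -1.01 (interval -1.10 to -0.91) for the listed sequence. It was 2.54-fold lower by the tags with its first 18 nt, a log2 ratio of -1.35 (-1.38 to -1.31). It was lower in HA under every scaling and count rule tried, but its size for the listed sequence ran from -0.23 with TMM over the conserved miRNAs to -1.36 with scaling by clean reads, and with TMM over all miRNAs it lay at the edge of a 2-fold difference.

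For the other two, the ratio of the listed sequence in WAT depended on the scaling. miR-22-3p had a log2 ratio of 0.27 (0.23 to 0.31), and this became -0.08 with scaling by clean reads and 1.05 with TMM over the conserved miRNAs. The tags with its first 18 nt gave 0.41 (0.39 to 0.43), and with them the ratio was above 0 under each of 3 scalings, from 0.16 to 0.41. The log2 ratio of miR-148-3p was 0.08 (-0.05 to 0.20) for the listed sequence, an interval that includes 0, and it became -0.27 by clean reads and 0.86 with TMM over the conserved miRNAs. For the tags with its first 18 nt it was 0.32 (0.27 to 0.37), and from 0.07 to 0.32 over the 3 scalings. TMM over the conserved miRNAs thus put miR-22-3p and miR-148-3p further from 0 than miR-130-3p for the listed sequence, whereas by the first 18 nt miR-130-3p was furthest from 0 under each of the 3 scalings.

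Of the 3 miRNAs, 1 (miR-130-3p) was at or past a 2-fold difference in WAT, beside 49.3% of the 142 listed miRNAs with 10 or more reads in the pair and 28.9% that were at least 2-fold lower in HA. This call depended on the scaling, since none of the 3 reached 2-fold with DESeq2 size factors, at -0.76 for miR-130-3p, and miR-22-3p was the one past it with TMM over the conserved miRNAs. By the first 18 nt miR-130-3p was again the one past it, beside 50% of 162. These 162 are not all distinct, since some listed miRNAs share their first 18 nt and so count the same reads. A 2-fold difference was thus common among all listed miRNAs in WAT, and the number of members past it does not stand apart. The median log2 ratio over all those tested was -0.29 for the listed sequences and 0.08 for the first 18 nt.

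The ratio of 2 miRNAs within a library does not depend on the scaling. There were 8.02 reads of miR-22-3p per read of miR-130-3p in HA and 3.30 in AA, so the balance of the pair differed 2.43-fold between the states, a log2 difference of 1.28 (1.18 to 1.39). With the first 18 nt as the count rule it differed 3.38-fold, from 6.24 in HA to 1.85 in AA. The balance of miR-130-3p to miR-148-3p moved in the same libraries from 2.75 in AA to 1.30 in HA, a log2 difference of -1.09 (-1.24 to -0.93). In contrast, miR-22-3p and miR-148-3p differed from each other by 0.20 (0.06 to 0.33) on the log2 scale, or 1.15-fold. Of the 3, miR-130-3p was thus the one whose proportion to the others differed between the WAT libraries by 2-fold or more.

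Markers of other cells moved with state in WAT as well. The list for stroma and vessels, 2 miRNAs, summed to 13548 and 40114 RPM in HA and AA, mostly from miR-199-3p, whose 156158 reads in HA stood against 458628 in AA, a log2 ratio of -1.22 (-1.23 to -1.21). The other stromal marker, miR-145-3p, had 218 and 173 reads in HA and AA. The 3 muscle markers and the 3 blood markers differed little in summed RPM, at 17409 and 18253 for muscle and 240 and 236 for blood. These sums are not corrected for the make-up of the 2 libraries. The muscle sum was carried by miR-1-3p, with 196202 and 202291 reads, while the muscle marker miR-133-3p had 84 and 331 reads in HA and AA, a log2 ratio of -1.64 (-2.01 to -1.29) in the same direction as miR-130-3p. The 2 epithelial markers summed to 25.9 in HA and 2.45 in AA, where miR-200a-3p had 0 reads. The part of other cells in the ratio of miR-130-3p was not tested.

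In brain, miR-22-3p and miR-130-3p lay above 0 and miR-148-3p below 0 with TMM over all listed miRNAs. miR-22-3p was 1.39-fold higher in HB than in AB for the listed sequence, a log2 ratio of 0.48 (0.38 to 0.58), and 1.57-fold higher by the first 18 nt, at 0.65 (0.62 to 0.69). It was higher in HB under every scaling and count rule tried, from 0.19 to 0.74. miR-130-3p had 0.33 (0.07 to 0.59) for the listed sequence and 0.12 (0.03 to 0.22) for the first 18 nt. Scaling the listed sequence by clean reads gave 0.04 (-0.22 to 0.30), an interval that includes 0. miR-148-3p had -0.28 (-0.40 to -0.15) for the listed sequence, and -0.09 (-0.14 to -0.03) for the first 18 nt.

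None of the 3 reached a 2-fold difference in brain, where 40.5% of 153 listed miRNAs did by the listed sequence and 27.8% of 176 by the first 18 nt. The balance of miR-22-3p to miR-130-3p, independent of scaling, was 7.11 in HB and 6.42 in AB, a log2 difference of 0.15 (-0.13 to 0.42) that includes 0. Counted by the first 18 nt, it was 8.30 in HB and 5.75 in AB, a difference of 0.53 (0.43 to 0.63). The balance of miR-22-3p to miR-148-3p was 2.07 in HB and 1.22 in AB, a difference of 0.75 (0.60 to 0.91).

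**Figure D2:**
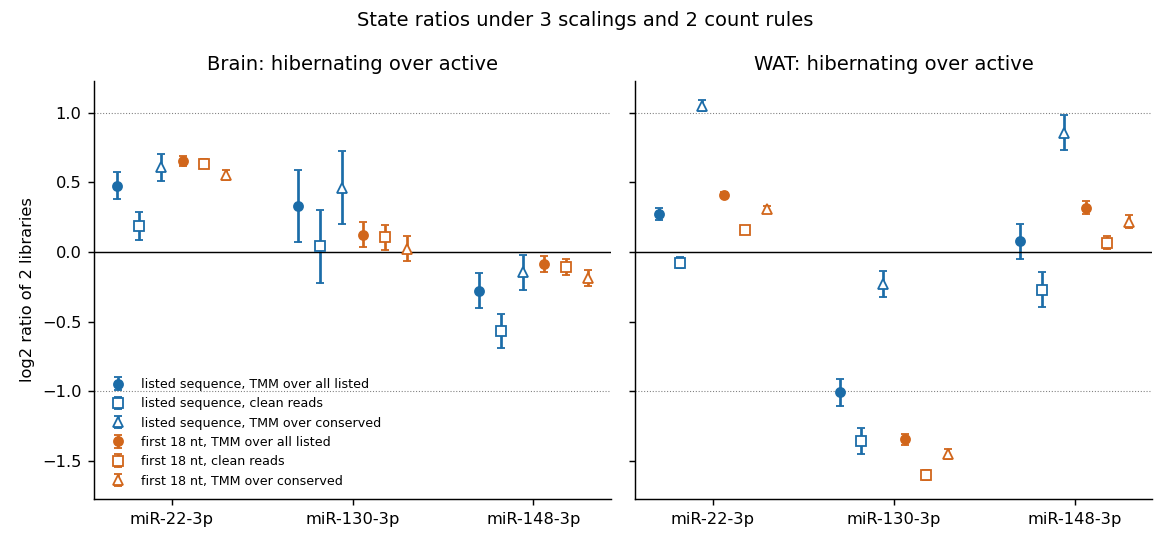
Log2 ratio of the hibernating over the active library in brain (left) and WAT (right) for each miRNA, with 95% counting intervals; blue marks the listed sequence, orange the tags that begin with its first 18 nt, and the shape marks the scaling, with dotted lines at a 2-fold difference. In WAT miR-130-3p lies below 0 in all 6 settings plotted, from -0.23 to -1.60, whereas the sign of miR-22-3p and miR-148-3p changes with the scaling of the listed sequence.

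The state ratio in WAT minus that in brain was -1.34 (-1.61 to -1.07) for miR-130-3p. Its ratio was above 0 in brain and below 0 in WAT, though the interval in brain included 0 with scaling by clean reads. Counted by the first 18 nt, this difference was -1.47 (-1.57 to -1.37). For miR-148-3p the difference was 0.36 (0.18 to 0.53), with the signs the other way round. For miR-22-3p it was -0.20 (-0.31 to -0.10). With TMM over the conserved miRNAs these differences became -0.69 for miR-130-3p, 1.003 for miR-148-3p and 0.44 for miR-22-3p. With 1 library per condition, none of these differences could be tested against the spread between bats.

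The tissues differed more than the states for miR-22-3p and miR-130-3p. In the active state, miR-130-3p was 13.1-fold higher in AA than in AB, a log2 ratio of 3.71 (3.52 to 3.92), and 12.9-fold higher by the first 18 nt. In the hibernating state it was 4.99-fold higher in HA than in HB, at 2.32 (2.13 to 2.51), and 3.88-fold by the first 18 nt. The gap between tissues was thus wider in the active libraries, as both its brain levels were alike and its level in HA was below that in AA.

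miR-22-3p was 6.75-fold higher in AA than in AB, a log2 ratio of 2.75 (2.67 to 2.84), and 5.63-fold higher in HA than in HB, at 2.49 (2.42 to 2.56). By the first 18 nt these were 4.14-fold and 2.92-fold, so the count rule moved the size of both by more than 1.5 times. miR-148-3p had a log2 ratio of -0.14 (-0.26 to -0.02) in AA over AB and 0.16 (0.03 to 0.29) in HA over HB for the listed sequence. With the first 18 nt both were above 0, at 0.54 (0.49 to 0.59) and 0.68 (0.63 to 0.74), so the direction for the active state depended on which forms were counted.

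In each state, 2 of the 3 miRNAs were at least 2-fold higher in WAT. Among all listed miRNAs this held for 36.5% of 159 in the active state and 35.2% of 159 in the hibernating state. Differences of 2-fold or more in either direction were found for 74.8% and 76.1%, so the 2 tissues differed in most listed miRNAs.

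The listed sequence was not the leading form of any of the 3 miRNAs. For miR-22-3p it held 10.4%, 14.2%, 20.2% and 23.7% of the reads with its first 18 nt in HB, AB, HA and AA. The shares of miR-130-3p were 12.1%, 12.7%, 15.7% and 13.2% in the same order, and those of miR-148-3p were 17.6%, 24.2%, 12.3% and 15.5%. Over the 99 conserved miRNAs with 100 or more such reads, the median share was 33.3%, and over the 4 libraries together the 3 members were at 19.4%, 13.7% and 16.6%. The listed sequence led its group for 112 of all listed miRNAs.

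The forms that carried most reads were shortened at the 3′ end. They are shown here because the 2 count rules differ by them, with capitals for a 3′ base that departs from the listed sequence.
miR-22-3p, 20 nt: aagctgccagttgaagaact
miR-22-3p, 18 nt: aagctgccagttgaagaa
miR-22-3p, 20 nt with an A end: aagctgccagttgaagaacA
miR-130-3p, 20 nt: cagtgcaatgttaaaagggc
miR-130-3p, 18 nt: cagtgcaatgttaaaagg
miR-130-3p, 23 nt with an A end: cagtgcaatgttaaaagggcatA
miR-130-3p, 23 nt with a T end: cagtgcaatgttaaaagggcatT
miR-148-3p, 18 nt: tcagtgcatcacagaact
miR-148-3p, 20 nt: tcagtgcatcacagaacttt
miR-148-3p, 22 nt with an A end: tcagtgcatcacagaactttgA
The shortest tags in the data are 18 nt long, so shorter forms were not seen.

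The 20 nt form of miR-22-3p held 54.3%, 50.0%, 52.6% and 50.1% of its reads in HB, AB, HA and AA, close to one level in all 4 libraries. Its 18 nt form held 10.3% and 13.7% in HB and AB but 5.65% and 7.54% in HA and AA. The brain libraries thus held more of the shortest form and less of the listed 22 nt form than the WAT libraries. The 20 nt form ending in A held 10.4% in HB (9.93 to 10.8%) against 5.59% in AB (5.15 to 6.06%), 4.50% in HA and 4.39% in AA. The HB library stood apart from the other 3 in this form.

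The reads of miR-130-3p were split more evenly over its forms. The 20 nt form held 35.0%, 25.4%, 24.4% and 34.1% in HB, AB, HA and AA, and the 18 nt form held 26.6%, 31.2%, 24.9% and 23.2%. The 20 nt form therefore led in HB and AA, whereas the 18 nt form led in AB and, by a small margin, in HA. Forms that carry the whole listed sequence and added 3′ bases held 16.2% of the reads in HA (15.4 to 17.02%) against 7.80% in AA (7.46 to 8.15%), and 5.67% in HB (4.75 to 6.70%) against 12.2% in AB (10.7 to 13.8%). The forms with a single added A or T made up most of these, at 7.005% and 6.06% in HA against 3.39% and 3.84% in AA. The extended share was higher in the hibernating library in WAT and in the active library in brain.

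The 18 nt form of miR-148-3p held 59.0%, 54.2%, 54.1% and 55.2% of its reads in HB, AB, HA and AA. Its 20 nt form held 16.8%, 14.9%, 19.3% and 17.6%. The listed 22 nt form was more common in each active library than in the hibernating library of the same tissue, with an interval of 23.0 to 25.5% in AB against 16.6 to 18.6% in HB, and 14.7 to 16.4% in AA against 11.6 to 13.1% in HA. The 22 nt form ending in A in place of the last T held 7.31% in HA and 5.20% in AA but 1.80% in HB and 2.07% in AB, so it was more common in WAT.

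**Figure D3:**
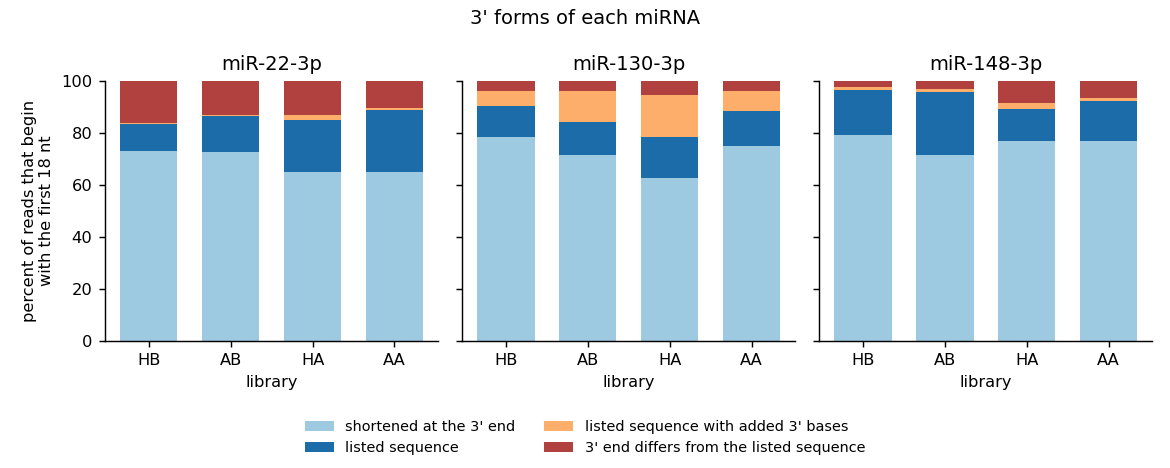
Stacked bars of the percent of reads of each miRNA, among tags that begin with its first 18 nt, that are shortened at the 3′ end, identical to the listed sequence, extended beyond it or different from it at the 3′ end, in the 4 libraries. Shortened forms hold between 62.7 and 79.1% of the reads everywhere, and the extended part of miR-130-3p is larger in AB and HA than in HB and AA.

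The 5′ end sets the seed, and its variation was seen only in part. Tags that begin after base 2 were not counted, so larger losses at the 5′ end could not be found. Among tags that contain bases 2 to 17 of the listed sequence, another 5′ end was found in 1.05 to 1.57% of the reads of miR-22-3p, 1.42 to 2.10% of miR-130-3p and 0.39 to 0.77% of miR-148-3p. No read of the opposite strand of any of the 3 listed sequences was found in the 4 libraries.

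The data also held tags that are not among the listed miRNAs but have the same seed at the same position. For miR-148-3p these together outnumbered the listed miRNA in every library, by a wider margin in WAT. Their leading tags are shown with the seed in capitals, and positions of differences are counted from 1 at the 5′ end of the listed sequence, over its first 18 nt.
miR-148-3p: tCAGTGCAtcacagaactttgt
unlisted, first: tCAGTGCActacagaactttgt
unlisted, second: tCAGTGCAtgacagaacttgg
The first differs from miR-148-3p by T9C and C10T and the second by C10G. No reference table of miRNA names was used here, so these sequences were given no name.

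The first unlisted sequence had 2491, 3150, 72670 and 66499 reads in HB, AB, HA and AA, counted over tags with its first 18 nt. The second had 3475, 3246, 19310 and 22169 reads. Both were far more abundant in WAT, with log2 ratios of 4.34 (4.29 to 4.39) and 2.71 (2.66 to 2.76) in AA over AB and of 5.04 (4.99 to 5.10) and 2.65 (2.60 to 2.70) in HA over HB, where miR-148-3p itself had 0.54 and 0.68 by the same rule. Between the states the first had -0.60 (-0.68 to -0.52) in brain and 0.37 (0.35 to 0.38) in WAT, and the second had -0.16 (-0.23 to -0.09) and 0.04 (0.01 to 0.07). The second turned below 0 in WAT under other scalings, at -0.21 by clean reads and -0.06 with TMM over the conserved miRNAs.

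Of all reads with the seed of miR-148-3p at this position, the listed miRNA held 45.9% and 41.3% in the HB and AB libraries but 7.47% and 7.34% in the HA and AA libraries. In WAT, 70.7% in HA and 67.1% in AA came from the first unlisted sequence. Summed over the whole seed, the log2 ratio of WAT over brain was 3.03 in the active state and 3.30 in the hibernating state, whereas the listed miRNA gave 0.54 and 0.68 by the same count rule. The seed of miR-148-3p was thus more abundant in WAT than in brain by more than the listed miRNA was.

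For miR-130-3p the listed miRNA held 81.6% and 78.1% of the reads with its seed in the brain libraries HB and AB, and 95.8% and 96.2% in the WAT libraries HA and AA. An unlisted sequence with this seed showed the opposite order of tissues, and its leading tag is given beside that of miR-130-3p.
miR-130-3p: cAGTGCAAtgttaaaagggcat
unlisted, first: cAGTGCAAtgatgaaagggcat
It differs from miR-130-3p by T11A and A13G. It had 325, 351, 82 and 26 reads in HB, AB, HA and AA, so brain was above WAT, with log2 ratios of -3.82 (-4.45 to -3.24) in AA over AB and -1.81 (-2.18 to -1.46) in HA over HB. In WAT it was higher in HA than in AA, at 1.90 (1.25 to 2.59), the other direction from miR-130-3p. It was rare in WAT, and the whole seed kept the ratio of the listed miRNA there, at -1.34 (-1.38 to -1.30).

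A further unlisted sequence with this seed but a different 3′ part had 68, 41, 8 and 10 reads in HB, AB, HA and AA. The other 3 of the 5 most abundant unlisted sequences with this seed each differed from miR-130-3p by 1 base and, like it, had more reads in WAT than in brain. For miR-148-3p, the unlisted sequences ranked 3 to 5 each differed by 1 base from a more abundant sequence with the seed and had at most 841 reads over the 4 libraries. For miR-22-3p, the listed miRNA held between 95.4 and 95.9% of the reads with its seed in all 4 libraries. Its 5 most abundant unlisted neighbours each differed from it by 1 base and had at most 1539 reads over the 4 libraries.

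**Figure D4:**
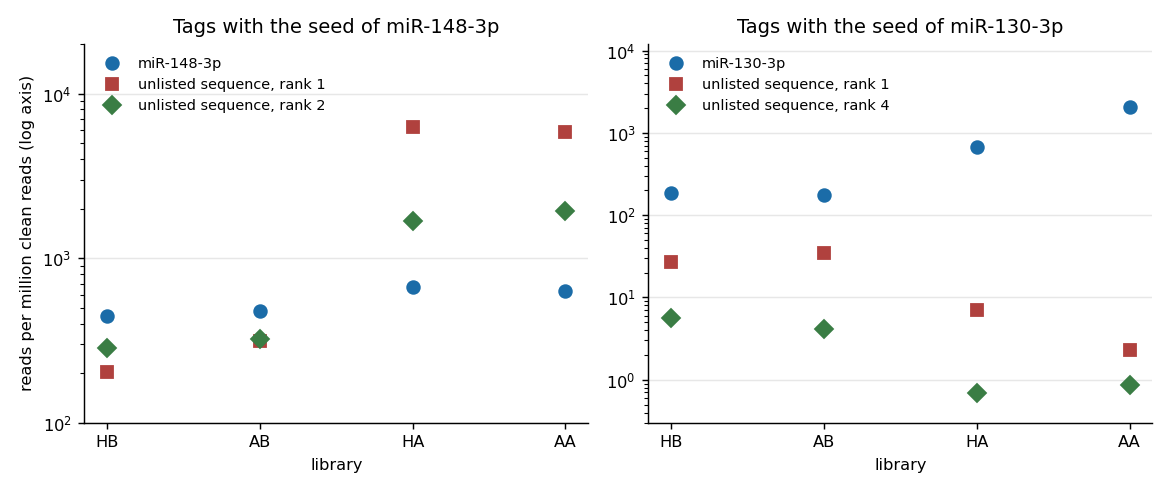
RPM (log axis) of sequences that share the seed of miR-148-3p (left) and miR-130-3p (right) in the 4 libraries, counted over tags with their first 18 nt; ranks number the unlisted sequences by reads. Both unlisted sequences plotted for miR-148-3p exceed it in HA and AA, at 72670 and 66499 reads for the first, and both plotted for miR-130-3p are higher in brain, where miR-130-3p is lower.

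The listed miRNAs with the most similar course over the 4 libraries were found by the distance between log2 levels, each scaled by TMM and centred over the 4 libraries, among the 129 with 100 or more reads in all. The nearest to miR-130-3p was miR-1468-5p at a distance of 0.48, with 22, 19, 141 and 408 reads in HB, AB, HA and AA, followed by miR-16-5p at 0.79 and a bat-specific miRNA at 0.82. The nearest to miR-22-3p were a bat-specific miRNA at 0.51, with 16, 6, 61 and 71 reads in HB, AB, HA and AA, then miR-503-5p at 0.84 and another bat-specific one at 0.85. The nearest to miR-148-3p were miR-7g-5p at 0.09, miR-7e-5p at 0.22 and miR-7d-5p at 0.29, under the names used in the list. By the first 18 nt the nearest changed for all 3, to miR-151-3p at 0.26 for miR-148-3p, to miR-16-5p at 0.81 for miR-130-3p, with miR-1468-5p second at 0.91, and for miR-22-3p to the bat-specific miRNA given at 0.85 above, now at 0.46. With 4 points, a small distance describes these libraries and nothing more.

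A list of 11 other listed miRNAs with a known part in fat cells was counted beside the 3. It was drawn up with earlier results of these data known. The study itself reports miR-378-3p, miR-448-3p, miR-455-3p and miR-363-3p of this list as different between the states in WAT. Its shares and medians may thus be partly set by that choice, and they describe the list only. In WAT, 1 of the 10 with enough reads was at least 2-fold higher in HA and 5 were at least 2-fold lower, so 6 of 10 were past 2-fold beside 49.3% of all listed miRNAs tested. The median log2 ratio of the list was -1.25 beside -0.29 over all those tested. The median of the list was -0.45 by the first 18 nt, beside 0.08 over all those tested. With TMM over the conserved miRNAs it was -0.48, beside 0.49 over all those tested. That scaling turned the split of the list to 3 higher and 4 lower, beside 51 higher and 19 lower of all 142 tested. The size of the median thus depended on the count rule and the scaling, but it lay below that of all those tested each time. miR-378-3p, which lies within a gene of mitochondrial and lipid metabolism, had 11775 and 180178 reads in HA and AA, a log2 ratio of -3.60 (-3.63 to -3.57). Its ratio was -3.31 by the first 18 nt and -2.82 with TMM over the conserved miRNAs. The study also reports this miRNA as lower in hibernating WAT, by less in its PCR assay of individual bats than by sequencing. Sequencing ratios in WAT that the study reports for members of this list were close to those with TMM over the conserved miRNAs. The pair miR-193-3p and miR-365-3p, known from brown fat, had 106 and 330 reads in HA and 541 and 598 in AA. miR-363-3p was the one at least 2-fold higher in HA, with 134 reads against 66.

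In brain, 1 of the 10 was at least 2-fold higher and 4 were at least 2-fold lower in HB, beside 40.5% of all listed miRNAs past 2-fold, with a median of -0.16 beside 0.01 over all those tested. The higher one was miR-193-3p, with 13 reads in HB and 5 in AB. Among the lower was miR-133-3p, with 4 and 9 reads, and the intervals of both include 0. By the first 18 nt, 0 of the list were higher and 1 was lower of 11, beside 27.8%. Between tissues, 6 of the 10 were at least 2-fold higher in WAT in each state, beside 36.5% of all listed miRNAs in the active and 35.2% in the hibernating state, as were miR-22-3p and miR-130-3p, while 3 were lower in the active state and 2 in the hibernating state. miR-133-3p of this list is also a muscle marker. miR-29-3p, the most abundant of the list, had 799130, 416098, 373410 and 357670 reads in HB, AB, HA and AA, and the listed sequence of miR-221-3p had at most 2 reads in any library. Tags with bases 2 to 17 of miR-221-3p had 23134, 26843, 5058 and 4907 reads, so nearly all of these tags did not begin with its listed first 18 nt.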

How the data were processed

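Small RNA was sequenced on an Illumina/Solexa machine from 4 pools of total RNA. The authors selected short RNA on a gel, discarded adapter and low quality sequence, and deposited the raw count of every distinct sequence (tag) per library, without normalization or alignment. Columns of other samples numbered 0. The tags are 18 to 30 nt long. The mature sequences came from the study's supplementary list of miRNAs. A miRNA was counted as the identical tag, and beside it as all tags that begin with its first 18 nt. Listed miRNAs that share their first 18 nt count the same reads under the second rule. Such reads enter its background shares, medians and TMM factors repeatedly. Log2 ratios of 2 libraries were scaled by TMM (edgeR 4.0.16, R 4.3.3) over the listed miRNAs, with exact Clopper-Pearson 95% intervals for counting error, computed in R. The interval of a difference of 2 log2 ratios used a normal approximation with the summed variances 1/count of the 4 counts. Intervals of shares were exact Clopper-Pearson (SciPy 1.17.1). No p-value was computed here, since 1 library per condition leaves no spread between replicates. Counts of 2-fold differences were taken over miRNAs with 10 or more reads in the pair. Alternatives were scaling by clean reads, TMM over the conserved miRNAs or over those with 10 or more reads, DESeq2 1.42.0 size factors, and tags with bases 2 to 17. The calculation was checked on simulated data. The rule for named sequences allowed the 3 members, their forms with at least 1% of the reads in any library, the 5 most abundant unlisted sequences per seed, the 3 nearest miRNAs and a list for fat cells, and the text shows a selection of these forms and unlisted sequences, made after their values were seen. Likeness used TMM-scaled RPM with a pseudocount of 1. The members and lists were chosen with earlier results of these data known. Genome positions were not used here.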

Additional observations from a re-analysis of the deposited data

Results flagged for a closer look

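The state log2 ratio of miR-130-3p was above 0 in brain (0.33) and below 0 in WAT (-1.01), a difference between the tissues of -1.34. The signs were the same by the first 18 nt, at 0.12 and -1.35. The ratio in brain had an interval that includes 0 by clean reads, at 0.04 (-0.22 to 0.30). The same held for the first 18 nt with TMM over the conserved miRNAs, at 0.02 (-0.07 to 0.12). For miR-148-3p the ratio was below 0 in brain (-0.28) and above 0 in WAT (0.08), a difference of 0.36, and its interval in WAT includes 0. Scaling by clean reads put miR-148-3p below 0 in both tissues, at -0.57 and -0.27. With 1 library of each condition, these differences were not tested.

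Sequences outside the list of miRNAs held reads with the seeds of the members, and those given here were picked by their abundance. With the seed of miR-148-3p, the first unlisted sequence had 144810 reads over the 4 libraries and the second 48200, beside 25120 for the listed miRNA by the same rule. With the seed of miR-130-3p, the first had 784 reads and another, ranked 4, had 127.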

How the results depend on the processing

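No paired analysis was possible because each condition had 1 pooled library, although the brain and WAT pools of a state came from the same bats. For the same reason no library could be left out. miR-130-3p was lower in HA than in AA, and miR-22-3p higher in HB than in AB, under every alternative run, and both were higher in WAT than in brain in both states. Of 152 alternative values for the members, the counts of miRNAs and the shares, 86 lay within the counting interval of the value reported or, for counts, within 1.5 times. The shares of the listed sequence and the counts of 2-fold differences were all among the 86. The ratios of the members and their differences thus held less often than that total shows. Where a value moved because of the scaling, the scaling shifts all ratios of a pair together, and for the count rules the cause was not tested. TMM over the conserved miRNAs turned the split of 2-fold differences in WAT from 29 higher and 41 lower to 51 and 19, and scaling by clean reads gave 23 and 54. In brain the split was 35 and 27, and 26 and 37 by clean reads. Depth limits miR-130-3p in brain most, with 221 and 276 reads.

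For the listed sequence, scaling by clean reads gave log2 ratios in HB over AB of 0.19 for miR-22-3p, 0.040 for miR-130-3p and -0.57 for miR-148-3p, and in HA over AA of -0.076, -1.36 and -0.27. For miR-22-3p it gave 2.66 in AA over AB and 2.40 in HA over HB. TMM over the conserved miRNAs gave 0.61 for miR-22-3p and -0.15 for miR-148-3p in HB over AB, and 1.05, -0.23 and 0.86 for miR-22-3p, miR-130-3p and miR-148-3p in HA over AA. For miR-22-3p it gave 2.84 in AA over AB and 2.40 in HA over HB. The difference of WAT minus brain was then 0.44, -0.69 and 1.003 for the 3 in that order. DESeq2 size factors gave 0.52, -0.76 and 0.33 in HA over AA. They gave 2.57 for miR-22-3p and -0.32 for miR-148-3p in AA over AB, and 2.33 and 0.00 in HA over HB. That 0.00 was fixed by the method, since miR-148-3p itself was the miRNA at the median ratio that set the scale of this pair.

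The tags with the first 18 nt gave 0.65 for miR-22-3p and -0.086 for miR-148-3p in HB over AB, and 0.41, -1.35 and 0.32 for the 3 in HA over AA. Between tissues they gave 2.05 for miR-22-3p and 0.54 for miR-148-3p in AA over AB, and 1.54, 1.96 and 0.68 in HA over HB. Tags with bases 2 to 17 gave 0.74 for miR-22-3p and 0.00015 for miR-148-3p in HB over AB, and -1.45 for miR-130-3p and 0.21 for miR-148-3p in HA over AA. They gave 2.03 and 0.52 for miR-22-3p and miR-148-3p in AA over AB, and 1.73 and 0.87 in HA over HB. The difference of WAT minus brain was -0.43 for miR-22-3p and -1.67 for miR-130-3p.

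For the first 18 nt, 2 scalings were added after seeing the data. TMM over the conserved miRNAs gave, for miR-22-3p, miR-130-3p and miR-148-3p, 0.55, 0.024 and -0.19 in HB over AB, 0.31, -1.45 and 0.22 in HA over AA, 2.39, 4.03 and 0.88 in AA over AB, and 1.64, 2.05 and 0.78 in HA over HB. Scaling by clean reads gave 0.16, -1.60 and 0.066 in HA over AA, 1.92, 3.56 and 0.41 in AA over AB, and 1.44, 1.85 and 0.58 in HA over HB. The second unlisted sequence with the seed of miR-148-3p had -0.21 in HA over AA by clean reads and -0.061 with TMM over the conserved miRNAs.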
